A study of Caenorhabditis elegans with 2 samples.

Results

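The genes described are the 2 Notch receptors of Caenorhabditis elegans, lin-12 and glp-1, the DNA-binding effector lag-1, the Hairy/Enhancer of split relative lin-22, and 6 genes of the REF-1 family, ref-1, hlh-25, hlh-26, hlh-27, hlh-28 and hlh-29. They were taken by name, 10 of 19973 protein-coding genes on the nuclear chromosomes, and all 10 were found in the annotation. The data were ChIP-seq region lists for ZTF-11, the worm member of the Myt1 family of zinc-finger proteins, which regulate transcription in developing neurons. There was 1 group of 2 biological replicates, with no second condition. Each was made from whole first-stage (L1) larvae of mixed sex. Per the labels, the strain OP236 carries unc-119(ed3) III and the transgene wgIs236, which expresses ZTF-11 fused to GFP-FLAG at its C-terminus. The profiled protein is therefore the tagged transgene product. Because whole larvae were used, binding in few cells and weak binding in many cells cannot be told apart.

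Notch signalling passes information between touching cells. A ligand of the DSL type on 1 cell binds a receptor on its neighbour, the receptor is cut, and its intracellular part enters the nucleus and joins the DNA-binding protein LAG-1 (the worm CSL protein) and the co-activator SEL-8 on target genes. LIN-12 acts in cell fate choices such as those of the somatic gonad and vulva, and GLP-1 in germline proliferation and embryonic inductions. REF-1 family proteins are basic helix-loop-helix (bHLH) factors, distantly related to the Hairy/Enhancer of split (HES) repressors, and several of their genes are Notch targets in the embryo. In the mouse, Myt1 family factors are known to repress Notch pathway genes, Hes1 among them, during neuron formation.

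The sequences first shown come from hlh-28 and hlh-29, which lie back to back on X. The 250 bases before each start, from the RefSeq copy of WBcel235 (ce11), are shown because they are nearly identical. Capitals mark the 2 positions at which they differ. Whether this likeness affected the placement of reads in these lists was not tested.
hlh-28 (chrX:17550805-17551054, plus strand): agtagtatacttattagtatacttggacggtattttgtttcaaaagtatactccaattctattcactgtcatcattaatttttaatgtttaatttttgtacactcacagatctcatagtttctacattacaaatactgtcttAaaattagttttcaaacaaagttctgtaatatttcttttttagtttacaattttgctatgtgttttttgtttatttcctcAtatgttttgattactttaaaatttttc
hlh-29 (chrX:17548640-17548889, minus strand): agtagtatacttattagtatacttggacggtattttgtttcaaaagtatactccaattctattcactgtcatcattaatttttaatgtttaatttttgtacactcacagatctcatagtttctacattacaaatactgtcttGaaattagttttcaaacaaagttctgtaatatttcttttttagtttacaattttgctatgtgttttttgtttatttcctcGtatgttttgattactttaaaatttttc
The pair shared 248 of these 250 bases (99.2%). In a local alignment from 1000 bp before to 1500 bp after the starts, 98.7% of 2382 columns were identical. For hlh-25 and hlh-27 on chromosome II, 94.8% of 1542 columns were identical. The other 19 pairs among lin-22 and the REF-1 family genes gave local alignments of 55.6% to 71.2% identity.

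The regions next shown are those with the highest pooled rank around lin-12, lag-1, hlh-27 and hlh-29, and the region in the glp-1 promoter window. Each is 200 bases around the summit, which is the position the authors give as the centre of signal. Capitals mark GTGGGAA or ATGGGAA, the forms of the site bound by LAG-1, and AAGTT, the word known for Myt1 family factors, on either strand. No 2 matches overlapped in these sequences, although the last bases of the LAG-1 words can form the start of AAGTT.
lin-12 upstream (chrIII:9073392-9073591, plus strand): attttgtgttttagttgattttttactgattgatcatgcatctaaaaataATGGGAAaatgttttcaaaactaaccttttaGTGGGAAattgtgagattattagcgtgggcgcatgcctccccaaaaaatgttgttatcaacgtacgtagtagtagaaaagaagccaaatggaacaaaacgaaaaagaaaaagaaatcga
glp-1 promoter window (chrIII:9091381-9091580, plus strand): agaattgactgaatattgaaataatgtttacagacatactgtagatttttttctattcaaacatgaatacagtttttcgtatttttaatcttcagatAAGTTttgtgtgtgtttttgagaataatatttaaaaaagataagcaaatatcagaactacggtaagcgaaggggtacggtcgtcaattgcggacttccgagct
lag-1 downstream (chrIV:6113128-6113327, plus strand): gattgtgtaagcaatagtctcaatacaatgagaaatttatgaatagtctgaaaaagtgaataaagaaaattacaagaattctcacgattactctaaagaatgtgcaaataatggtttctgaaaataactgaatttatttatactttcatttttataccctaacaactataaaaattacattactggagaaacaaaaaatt
hlh-27 upstream (chrII:5543455-5543654, plus strand): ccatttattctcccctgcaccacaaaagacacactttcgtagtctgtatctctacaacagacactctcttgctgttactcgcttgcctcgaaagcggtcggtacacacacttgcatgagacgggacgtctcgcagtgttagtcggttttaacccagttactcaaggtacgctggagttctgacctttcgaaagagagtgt
hlh-29 downstream (chrX:17544391-17544590, plus strand): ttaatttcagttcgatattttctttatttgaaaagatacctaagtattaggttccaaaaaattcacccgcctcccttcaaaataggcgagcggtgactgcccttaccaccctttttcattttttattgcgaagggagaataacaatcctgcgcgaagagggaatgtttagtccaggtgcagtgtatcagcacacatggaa
The lin-12 sequence held 1 GTGGGAA and 1 ATGGGAA, and the glp-1 sequence held 1 AAGTT. The lag-1, hlh-27 and hlh-29 sequences held none of these words.

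No gene of the group had a consensus peak, and none had a high-ranked region at its promoter. The authors deposited lists of 30000 regions for the pooled reads and for each replicate, which hold background as well as peaks, and a thresholded list of 88 consensus peaks. The promoter window covered the 1000 bp before and the 500 bp after each annotated transcript start. A consensus peak lay in the promoter window of 0 of 10 members and of 0.411% of all protein-coding genes, and within 5 kb or the gene body of 0 of 10 members and of 1.39% of all genes. Regions were ranked by signal among the nuclear regions of their list. No member had a promoter region among the 1000 highest of the pooled list, where 2.90% of all genes did. The count was also 0 in replicate 1, against 2.48% of genes, and 0 in replicate 2, against 2.73%. With shares this low, a group of 10 genes would often hold none, so these counts do not set the members apart.

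Listed regions of any rank were found at member promoters about as often as at other genes. In the pooled list 4 of 10 members had one, glp-1, lag-1, lin-22 and hlh-26, against 45.2% of all genes. In replicate 1 these were lag-1, lin-22 and hlh-26, against 44.8% of genes, and in replicate 2 they were glp-1, lag-1, ref-1 and lin-22, against 45.7%. Of the members, lag-1 and lin-22 had a region in the window in all 3 lists. The share of all genes that did was not counted. A pooled promoter region with a summit within 200 bp in both replicate lists was found at 0 of 10 members, against 14.3% of all genes. With 10 genes and no test, nothing particular to the members is read from this. With 1 group no test between conditions was possible, and no p-value is given. Read depth is unknown, since the lists hold no counts.

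**Figure D1:**
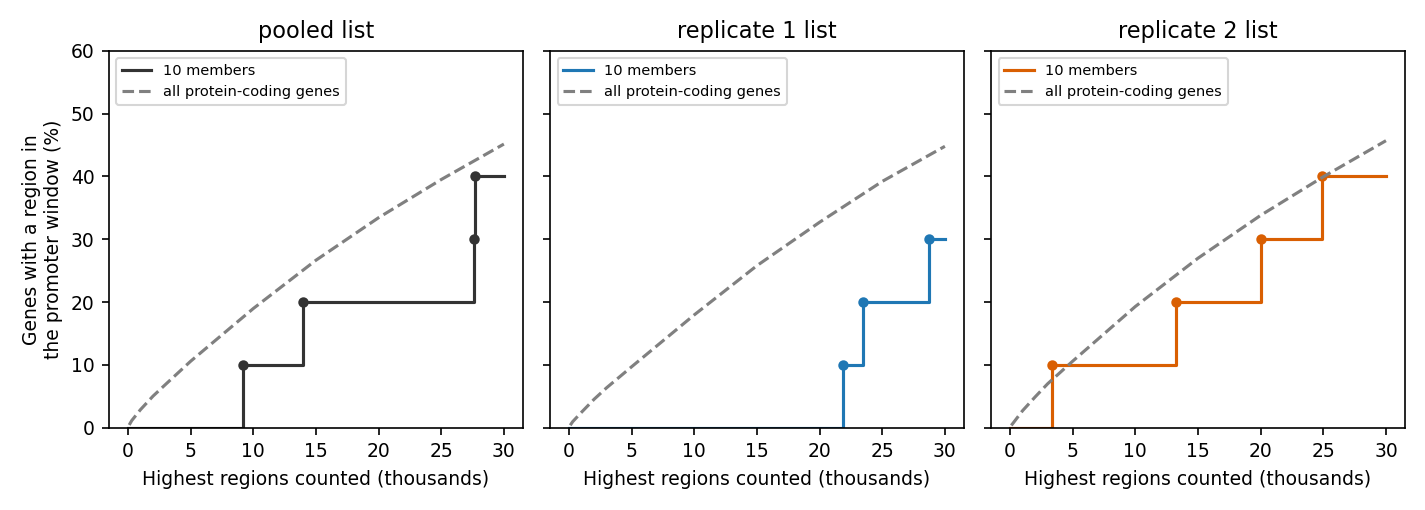
Percent of genes with a region in the promoter window (y axis) among the highest regions of each list (x axis, number of regions), with the 10 members as a solid step line and all protein-coding genes as a dashed line. No member is reached within the first 3000 regions of any list, and the members end at 40% for the pooled reads, 30% for replicate 1 and 40% for replicate 2.

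Of the receptors, glp-1 had a promoter region and lin-12 had none. The glp-1 gene (WBGene00001609, chromosome III 9092241 to 9099698, plus strand) had a pooled summit 760 bp upstream of its start, with a signal of 18.3 and rank 9171. In replicate 2 a summit lay at the same base, with a signal of 13.2 and rank 3378. Replicate 1 listed none in the window, its nearest being 1835 bp upstream (signal 13.3, rank 4942). The pooled glp-1 region was the highest of any member promoter, yet 17.7% of all protein-coding genes had a higher-ranked one. The summit was intergenic, in unrepeated sequence, and its nearest protein-coding start was that of glp-1. Because replicate 1 listed no region there, no genes of like pattern over both replicates could be named.

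The lin-12 gene (WBGene00003001, chromosome III 9060221 to 9071472, minus strand) had no promoter region in any list. Its highest regions lay farther upstream and depended on the replicate. The pooled summit 2020 bp upstream had a signal of 17.2 and rank 11743. Replicate 2 had a summit at the same base with a signal of 18.6 and rank 365, while replicate 1 had no summit within 200 bp of it. The single region that replicate 1 listed around lin-12 was 2538 bp upstream, with a signal of 7.46 and rank 29688, near the end of that list. The replicates thus differed around this gene, with 1 region within 5 kb or the gene body in replicate 1 and 6 in replicate 2, but several were nearest the start of another gene. The replicate 1 region was nearest the start of F02A9.7, 1629 bp away. In replicate 2 a summit lay 4 bp from that start, and the summits 69 bp and 1152 bp from the start of gst-1 had it as their nearest start. The summit 1152 bp from it still lay within the lin-12 gene body, in a coding exon. The region 2020 bp upstream was the only 1 of 34 distinct pooled regions around the members with a LAG-1 word within 50 bp of its summit (2.94%), and 2.90% of all 30000 pooled regions had such a word.

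The lag-1 gene (WBGene00002245, chromosome IV 6095407 to 6110655, plus strand) encodes the CSL protein through which both receptors act. It had weak promoter regions in all 3 lists, at positions that differed. The pooled summit lay 114 bp upstream (signal 16.4, rank 13935). In replicate 1 a summit lay 202 bp upstream (signal 8.60, rank 21864) and another 56 bp downstream of an internal start (signal 7.45, rank 29726), and in replicate 2 a summit lay 435 bp downstream (signal 8.26, rank 20065). All of these except the pooled one ranked below the median of their lists. Within introns of lag-1, replicate 1 had summits 1385 bp (signal 14.7, rank 2878) and 2159 bp (rank 7703) downstream of the start, each with a pooled region within 200 bp and no region of replicate 2.

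The highest region near lag-1 was outside the gene. It lay 2573 bp past the gene end, at chromosome IV 6113053 to 6113402, with a pooled signal of 32.7 and rank 289. In replicate 1 the summit was at the same base, with a signal of 23.5 and rank 131. In replicate 2 it was 14 bp away, with a signal of 9.44 and rank 13730. It was thus high in replicate 1 and near the middle of the list in replicate 2, which also listed a higher summit 2791 bp past the gene end (signal 10.4, rank 9943). The protein-coding start nearest to the pooled summit was that of M03D4.3, 837 bp away. The summit thus lay upstream of that gene and within the 5 kb window of lag-1 only by its downstream flank. A second pooled region, 4323 bp past the end of lag-1 (signal 24.0, rank 2369), was matched in replicate 1 (rank 2390) and replicate 2 (rank 6531). It was also nearest the start of M03D4.3.

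The bHLH members with little or no repeated promoter sequence were ref-1, lin-22 and hlh-26. Their promoter regions, where listed, ranked below the median of their lists, except that of lin-22 in replicate 2. The ref-1 gene (WBGene00004334, chromosome II 10218471 to 10220022) gives the family its name. It had no pooled promoter region, and replicate 2 listed a summit 762 bp upstream with a signal of 7.56 and rank 24904. The pooled region 1557 bp upstream (signal 14.9, rank 18764) and the replicate 1 region 1489 bp upstream (signal 11.9, rank 7891) lay outside the window and 68 bp from each other. Only that pooled region lay within 5 kb or the gene body, or 0.866 per 10 kb, and 10.9% of all genes had a lower density.

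The lin-22 gene (WBGene00003008, chromosome IV 3019738 to 3023304), a Hairy/Enhancer of split relative that patterns the lateral epidermis, had 1 promoter summit in each list. They lay 615 bp upstream in the pooled list (signal 12.8, rank 27616), 850 bp upstream in replicate 1 (signal 8.34, rank 23470) and 640 bp upstream in replicate 2 (signal 9.55, rank 13237). All but the last ranked below the median of their lists. The gene had 6 pooled regions within 5 kb or its body, or 4.42 per 10 kb, the highest density of any member, and 82.8% of all genes had a lower density. The region 2787 bp downstream of the start, in a UTR exon of lin-22, was found 2788 bp downstream in replicate 1 (signal 12.8, rank 5851) and 2891 bp downstream in replicate 2 (signal 7.17, rank 27912). It was 1 of 6 regions among the 34 that both replicates listed within 200 bp. Another of the 6 was the highest pooled region around lin-22, 4993 bp upstream (signal 19.9, rank 6322). Its matched summits had rank 27986 in replicate 1 and rank 4113 in replicate 2, and its nearest start was that of vrp-1.

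The hlh-26 gene (WBGene00001965, chromosome II 5532839 to 5533742, minus strand) had a summit 37 bp downstream of its start, in a coding exon. Its signal was 12.8 (rank 27681) in the pooled list and 7.58 (rank 28718) in replicate 1, and replicate 2 listed none. Both ranks were near the end of the lists. The 250 bases before hlh-26 are shown because they held the only LAG-1 word among the 10 member promoters, in capitals.
hlh-26 (chrII:5533743-5533992, minus strand): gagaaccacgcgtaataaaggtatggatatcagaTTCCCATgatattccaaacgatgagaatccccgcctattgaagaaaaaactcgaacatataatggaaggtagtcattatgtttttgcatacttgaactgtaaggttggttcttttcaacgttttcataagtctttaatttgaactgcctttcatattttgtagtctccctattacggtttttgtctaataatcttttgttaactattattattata
A GTGGGAA or ATGGGAA word occurred in these 250 bases in 1 of 10 members and in 8.62% of all 19973 promoters of the same length. The AAGTT word occurred in 7 of 10 members (lin-12, lag-1, ref-1, lin-22, hlh-27, hlh-28 and hlh-29) and in 63.7% of all promoters.

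**Figure D2:**
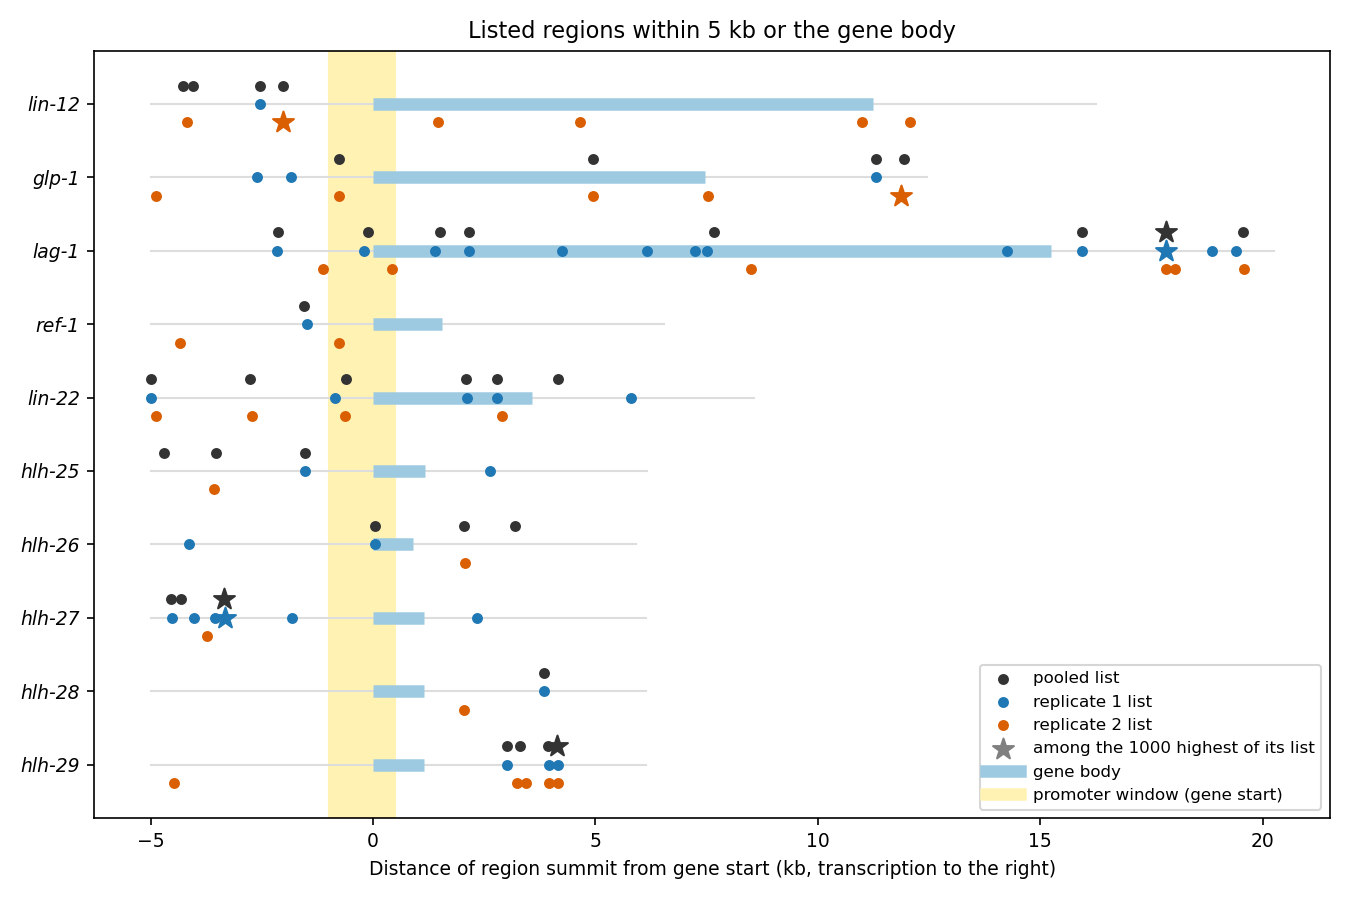
Summits of listed regions within 5 kb or the gene body of each member (rows), by distance from the gene start in kb with transcription to the right. Colours give the list and stars mark regions among the 1000 highest of their list, all of which lie outside the shaded promoter window, which is drawn for the gene start only.

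The other 4 REF-1 family genes, hlh-25, hlh-27, hlh-28 and hlh-29, had no promoter region in any list, and they were the 4 members with repeated promoter sequence. The share of 31-base words in the promoter window that occurred more than once in the nuclear genome was 79.5% for hlh-28 (WBGene00001967, chromosome X 17551055 to 17552202, plus strand) and 78.9% for hlh-29 (WBGene00001968, chromosome X 17547492 to 17548639, minus strand). It was 43.5% for hlh-25 (WBGene00001964, chromosome II 5535239 to 5536405, plus strand) and 43.3% for hlh-27 (WBGene00001966, chromosome II 5539075 to 5540213, minus strand). In the other 6 members it was at most 2.24%. Among these, lin-12, with a share of 0%, also had no promoter region in any list.

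Across all protein-coding genes, the share with a promoter region was lower where more of the window was repeated. Among the 345 genes with at least 70% repeated words, which include hlh-28 and hlh-29, 0.580% had a pooled region. Among the 433 genes from 40% to 70%, which include hlh-25 and hlh-27 near the lower end, it was 10.2%. It was 34.9% among the 2256 genes from 10% to 40%, which include no member, and 48.3% among the 16939 genes under 10%. The replicates gave the same order, with 1.45%, 11.1%, 34.0% and 48.0% in replicate 1 and 0.580%, 10.9%, 35.7% and 48.8% in replicate 2. The counts of 0 of 2 in each of the upper classes therefore do not set these 4 members apart from genes with similarly repeated promoters. The sources used here do not say how reads that map to more than 1 place were handled, and the part of repeated sequence in these counts was not tested. Among the 6 members under 10%, 4 had a pooled region, 3 a replicate 1 region and 4 a replicate 2 region.

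**Figure D3:**
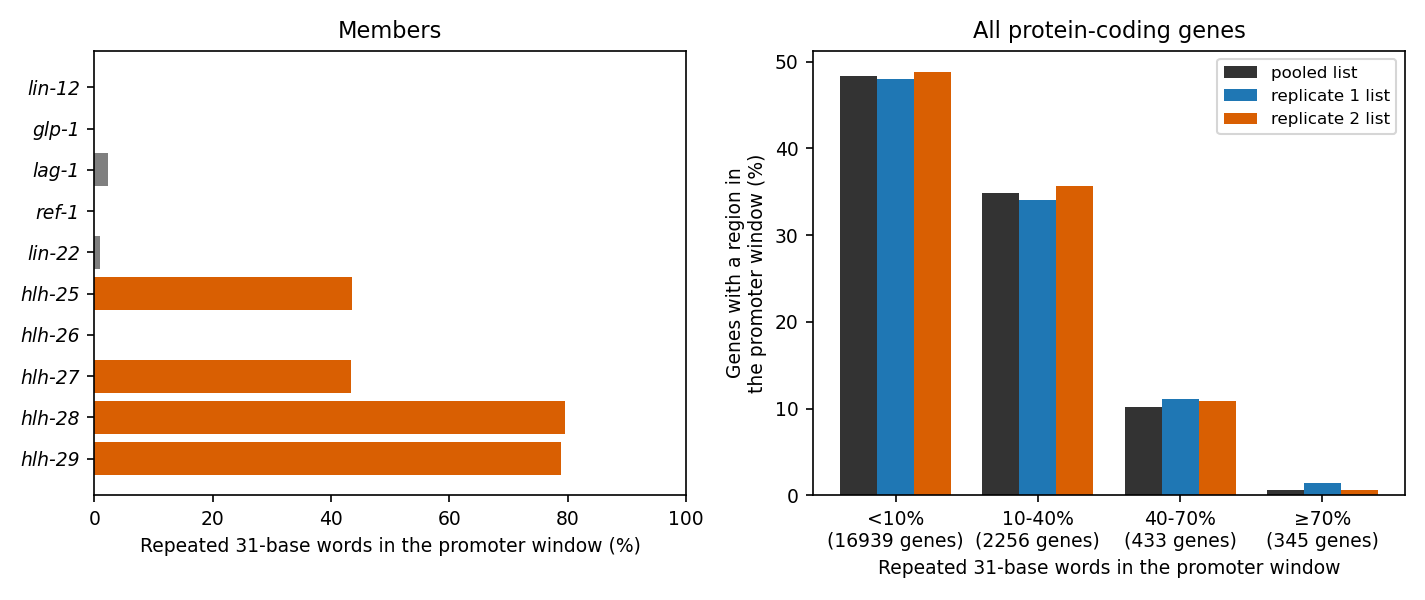
Left, percent of 31-base words in the promoter window found more than once in the nuclear genome, for each member, with those of at least 40% in orange. Right, percent of all protein-coding genes with a promoter region in each list, by repeated words, which in the pooled list is 48.3% under 10%, 34.9% from 10% to 40%, 10.2% from 40% to 70% and 0.580% at 70% and over.

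The regions nearest to these genes lay outside the promoter windows, and some lay in partly repeated sequence. For hlh-25 the nearest pooled summit was the hlh-26 one, 1534 bp upstream. For hlh-28 it was 3855 bp downstream of the start (signal 17.7, rank 10525), with a replicate 1 summit at the same base (rank 7694) and none in replicate 2 within 200 bp. For hlh-29 it was 3017 bp downstream (signal 12.9, rank 27278), where 22.5% of the words of the region were repeated. The stretch between the starts of hlh-29 and hlh-28, which holds both promoters, had no summit in any list.

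The highest region around any member was downstream of hlh-29, at chromosome X 17544316 to 17544665. It had a pooled signal of 37.4 and rank 133. The summits in replicate 1 (signal 16.9, rank 1315) and replicate 2 (signal 13.0, rank 3705) lay 15 bp and 2 bp away. This was the only pooled region among the 1000 highest around a member that was in the upper 5000 of both replicates. It was intergenic, 3001 bp past the end of hlh-29, and hlh-29 was the nearest protein-coding start at 4148 bp. Of its words 39.1% were repeated, against a mean of 1.71% over all pooled regions. A second summit 202 bp closer to the gene had a pooled signal of 23.4 (rank 2753) and was also listed in replicate 1 (rank 10033) and replicate 2 (rank 4606).

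The high region upstream of hlh-27, at chromosome II 5543380 to 5543729, lay beside a gene for a spliced leader RNA. Its pooled signal was 33.9 (rank 233) and its replicate 1 signal 29.3 (rank 35), and replicate 2 had no summit within 200 bp. Its summit was 3342 bp upstream of hlh-27 and 43 bp from sls-2.2 (chromosome II 5543598 to 5543707), a gene annotated as a small nuclear RNA, and 17.8% of its words were repeated. In replicate 1 further summits lay 3549 bp (signal 14.1, rank 3696) and 4015 bp (rank 14422) upstream of hlh-27. The former was 55 bp from sls-2.2, and the latter lay within sls-2.3, also annotated as a small nuclear RNA gene. The replicate 1 summit nearest to the hlh-27 start lay 1831 bp upstream (signal 10.1, rank 14111). A high rank within 5 kb of hlh-27 was thus found in 1 replicate, at another gene.

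**Figure D4:**
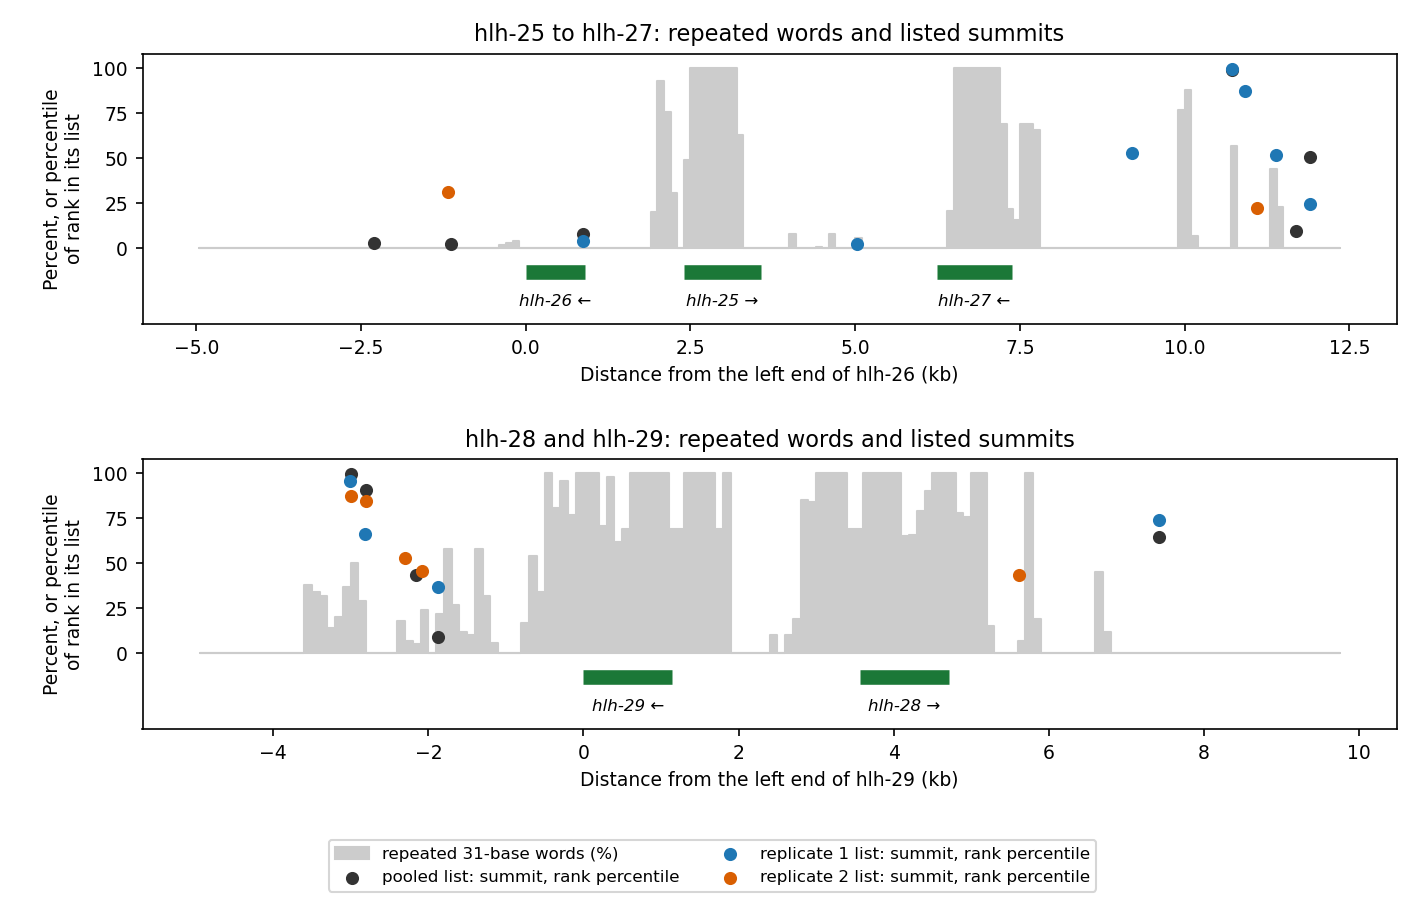
Percent of repeated 31-base words in 100 bp bins (grey) along the 2 hlh clusters, with genes as green bars and arrows for their strand. Points are listed summits, placed by the percentile of their rank in their list, and none lies between the starts of hlh-29 and hlh-28 or within 1000 bp upstream of hlh-25 or hlh-27, while some farther out lie in partly repeated bins.

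The density of regions around the members was slightly below that of the genome in all 3 full lists, and slightly above it among the 15000 highest pooled regions (1.57 against 1.496 per 10 kb). The windows of 5 kb or the gene body merged into 7 stretches of 121164 bp in all. They held 34 pooled regions, 34 of replicate 1 and 30 of replicate 2, or 2.81, 2.81 and 2.48 per 10 kb, against 2.99 per 10 kb of nuclear genome in each list. Every member had a region in these windows in each list, but so did 94.6% of all genes for the pooled reads, 94.3% for replicate 1 and 95.6% for replicate 2. The median signal of the 34 pooled regions was 16.3, against 16.1 over the pooled list. With flanks of 2 kb in place of 5 kb the pooled density was 1.89 per 10 kb around the members, against 2.99 for the genome. Taken per gene, the median density within 5 kb or the gene body was 2.69 per 10 kb over the members and 2.69 over all genes in the pooled list, 1.81 against 2.70 in replicate 1 and 2.05 against 2.76 in replicate 2. How far the members' density lay below the background thus depended on the flank and the list.

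Regions among the 1000 highest of their list lay within 5 kb or the gene body of 3 of 10 members in the pooled list (lag-1, hlh-27 and hlh-29), against 11.9% of all genes. In replicate 1 there were 2 such members (lag-1 and hlh-27), against 11.3% of genes, and in replicate 2 there were 2 (lin-12 and glp-1), against 12.0%. No member was common to both replicates. The share of all genes common to both was not counted, so nothing particular to the members is read from this. The glp-1 region of replicate 2 (signal 19.9, rank 231) lay 4425 bp past the gene end and 180 bp downstream of the start of dos-1, a gene chosen here after its values were seen, which encodes a secreted Notch co-ligand. In the pooled list the summit 228 bp downstream of the dos-1 start had a signal of 25.4 and rank 1659. It was 36 bp from WBGene00014624, annotated as a tRNA gene, and 16.9% of its words were repeated. Replicate 1 had no summit within 200 bp of it. Its own region there, 402 bp upstream of dos-1, had a signal of 14.4 and rank 3216.

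The median of the members' best pooled ranks within 5 kb or the gene body was 8423, against 6224 over all genes, where rank 1 is the highest signal. It was 6772 against 6362 in replicate 1 and 11709 against 5733 in replicate 2. Of the 34 pooled regions, 18 were intergenic (52.9%, against 41.0% of all pooled regions), 9 intronic (26.5% against 38.4%), 3 in coding exons (8.82% against 14.6%) and 4 in UTR exons (11.8% against 5.99%). The AAGTT word lay within 50 bp of 10 of the 34 summits, or 29.4%, against 38.4% of all pooled summits. Both replicates had a summit within 200 bp of 6 of the 34 (17.6%, against 25.1%) and neither had one for 3 (8.82%, against 10.6%). On each of these measures the members' regions differed from all regions by a few regions of 34.

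Across the rest of the Notch pathway, promoter regions were found at 20 of 40 genes in the pooled list, or 50%, and at 45.2% of all genes. In replicate 1 they were found at 17 of 40 (42.5%, against 44.8% of all genes). In replicate 2 they were found at 19 of 40 (47.5%, against 45.7%). Of 12 ligand genes 7 had a pooled region, the highest at dsl-4, a DSL-type ligand gene, 23 bp downstream of its start (signal 19.6, rank 6898), with rank 1935 in replicate 2 and none in replicate 1. At lag-2, a main ligand of both receptors, a summit was listed in all 3 lists, with pooled rank 22223, replicate 1 rank 26443 and replicate 2 rank 24593. All 3 were low in their lists.

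Of 7 genes for receptor processing 2 had a pooled region, aph-2 and pen-2, which encode components of the gamma-secretase complex. At pen-2 the pooled region 198 bp upstream had a signal of 22.5 and rank 3402, and the replicate 1 summit matched to it had rank 4518 (signal 13.5). Replicate 1 also listed another region in the window, of rank 954 (signal 17.7). This was the only region among the 1000 highest at a promoter of the 40 genes, and replicate 2 listed none at pen-2. Of all genes 2.48% had such a region in replicate 1, so 1 of 40 is near the background. Neither presenilin gene, sel-12 or hop-1, had a pooled promoter region. In the nuclear complex list, 1 of 3 genes had one, sel-8, which encodes the co-activator. Its summit lay 347 bp downstream of the start (signal 20.9, rank 5157), with matched summits at rank 1447 in replicate 1 and rank 15926 in replicate 2.

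Of 8 regulators 2 had a pooled region, bre-5 and unc-101, the higher being bre-5 (signal 19.4, rank 7140), which had rank 1253 in replicate 2 and none in replicate 1. Replicate 1 listed a region at 1 of the 8 regulators (12.5%, against 44.8% of all genes). Replicate 2 listed one at 5 (62.5%, against 45.7%). With 8 genes and no test, nothing particular to the regulators is read from this. Of 10 genes listed as Notch targets 8 had a pooled region, or 80.0%, against 45.2% of all genes, as did 8 in replicate 1 (44.8% of all genes) and 6 in replicate 2 (45.7%). With 10 genes and no test, nothing particular to the list is read from this. The highest was at lst-1, a germline target of GLP-1, 265 bp upstream (signal 22.3, rank 3635), with matched summits at rank 14092 in replicate 1 and rank 3810 in replicate 2. None of the 10 targets had a promoter region among the 1000 highest in any list, where 2.48% to 2.90% of all genes did. At sygl-1, the other germline target often studied with lst-1, replicate 1 alone listed a region (signal 8.87, rank 20274).

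Of 8 proneural bHLH genes 3 had a pooled promoter region, lin-32, ngn-1 and cnd-1, or 37.5% against 45.2% of all genes. The highest was at ngn-1, the worm neurogenin, 251 bp downstream of the start (signal 23.3, rank 2809), with rank 15961 in replicate 1 and 2372 in replicate 2. Of 15 further hlh genes 5 had one, or 33.3%, the highest at hlh-33 (signal 24.9, rank 1882), with rank 7308 in replicate 1 and 4809 in replicate 2. Against these, the highest member promoter, glp-1 at rank 9171, stood lower. Among these 23 genes, 1 had a promoter region among the 1000 highest of any list, hlh-30, at rank 460 in replicate 2 (signal 18.1) and rank 10892 in replicate 1. Of all genes 2.73% had one in replicate 2, so 1 of 23 is near the background.

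**Figure D5:**
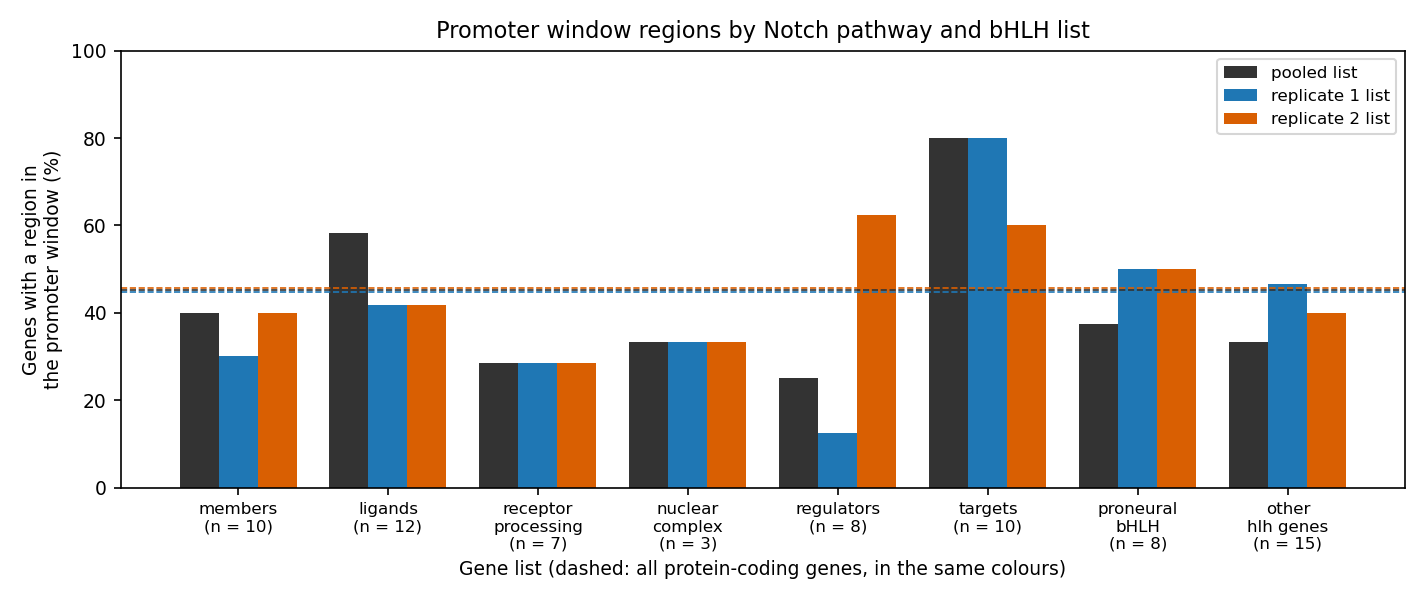
Percent of genes with a promoter region in the pooled, replicate 1 and replicate 2 lists, for the members and each pathway or bHLH list, with dashed lines for all protein-coding genes. Shares run from 12.5% to 80.0%, and lists of 3 to 15 genes give coarse shares, since 1 gene moves them by many percent.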

How the data were processed

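ChIP-seq for ZTF-11 was done in 2 biological replicates of L1 larvae. The authors deposited narrowPeak lists whose signal value per region is their own, with no scaling between lists stated. Per the file headers of the deposited README texts, the 30000-region lists hold peaks and background for a later reproducibility step, and the consensus was thresholded. The aligner, peak caller and threshold are not given in the sources used here. Regions in ce11 were used with Ensembl release 115 genes and the RefSeq WBcel235 sequence. All 10 members' coding sequences began with ATG there, and 0 regions passed a chromosome end. The 23 mitochondrial regions of replicate 1 were left out of ranks. The ce10 lists were not used.

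Summits were counted from 1. Windows, the 200 bp match and lists are as stated in the report. Members and lists were chosen with earlier results of these data known. Of 49 list names 48 matched, and lst-3 did not. Named list genes were those with a pooled promoter region among the 1000 highest or a consensus peak, otherwise the highest of each list. Other genes named were chosen after their values were seen. Window searches and repeated words were tested on simulated data. No p-values were computed. Python 3.11.15, numpy 2.4.6, pandas 2.3.3 and Biopython 1.88 were used. Alternatives covered the window, starts, overlap, list length, match distance and each replicate.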

Additional observations from a re-analysis of the deposited data

How the results depend on the processing

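Of 35 alternative values for 5 results, 29 stayed within 1.5 times or, for the density, within the SD of 0.233 between replicates, and 1 of the 35 was added after the data were seen. Some of the 29 could not have moved, because the setting could only lower a count of 0 or raise a count of 10 of 10. The count of members with a promoter region among the 1000 highest was 0 under all 10 alternatives run for it, but several could give no other value. A window from 500 bp upstream, the gene start alone, the 500 highest regions and mitochondrial regions kept cannot add a region to the main count. The runs without a replicate repeat the replicate counts given above. The wider window, any overlap and the 2000 highest regions could have raised the count. Members with a pooled promoter region numbered 2 with a window from 500 bp upstream (34.2% of all genes) and 2 among the 15000 highest regions (26.7%), as fewer positions or regions were counted, 6 with a window from 2000 bp upstream (59.3%), and 3 to 4 without a replicate. The number of members with a region within 5 kb or the gene body was 10 without either replicate. It was 7 among the 15000 highest regions (79.2% of all genes) and 7 with 2 kb flanks (81.8%). Regions per 10 kb around members were 1.57 for the 15000 highest, where the genome had 1.496 and the direction of the difference turned, 1.89 with 2 kb flanks (genome 2.99) and 2.48 to 2.81 without a replicate. The cause was not tested. With matching within 500 bp, 1 member, lin-22, had a promoter region in both replicates (18.4% of all genes). No paired analysis was possible because all samples form 1 group. The lists hold no read counts, so no depth limit could be given, and ce10 was not run for lack of an annotation of that build.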
